A study of Homo sapiens with 24 samples.

Results

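The mitochondrial genome of HK-2 cells, an immortalised line of human proximal tubular epithelium, is described here through its transcripts. Its members are all rows of the count table whose Ensembl gene ID maps to a symbol that starts with MT-, which gave 37 of 65180 rows. Of these, 13 encode proteins of the respiratory chain, 2 encode the mitochondrial ribosomal RNAs (rRNA) and 22 encode transfer RNAs (tRNA). All 37 lie on chromosome M of GRCh38. Poly(A)-selected RNA was measured in 24 libraries of 6 groups, all from cells kept without serum overnight and then incubated for 24 h. Normoxic cells received solvent, TGF-β1 at 2 ng/mL, or TGF-β1 with the BAY compound of the labels (BAY 60-2770), in 5 libraries each, or BAY alone in 3. Cells at 0.3% oxygen received solvent or BAY, in 3 libraries each. BAY is an activator of soluble guanylate cyclase, which produces cyclic GMP. Its labelled concentration is 1 mM, which is high for this class in culture, so the dose is doubtful. Control cells received the solvents of both agents, DMSO and acidified albumin. All groups come from 1 cell line, and the labels call the replicates biological without saying what separated them, so p-values reflect only the spread among these libraries, which may be technical.

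Mitochondrial DNA is a small circle that is copied into RNA along almost its whole length on both strands. The long precursors are cut mainly at the tRNAs that lie between the genes, and most of the released mRNAs receive a short poly(A) tail, which for several of them completes the stop codon. The heavy-strand precursor gives the rRNAs and all of the mRNAs but that of ND6, which comes from the opposite strand and is known for carrying little or no tail. MT-ATP8 with MT-ATP6, and MT-ND4L with MT-ND4, stay joined as pairs with overlapping reading frames. The proteins are core subunits of complexes I, III and IV and of ATP synthase, the machinery that consumes oxygen and makes most of the ATP of proximal tubular cells. Every other protein of the mitochondrion, including the polymerase and the nucleases that act on these RNAs, is encoded in the nucleus.

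The last bases of 6 mRNA genes are shown because these genes stand at both ends of the response to hypoxia below. For those that end in a lone T the tail completes the stop codon. The annotated end of a gene need not be where its tail is added. Each line gives the last 24 bases of the gene in GENCODE 29 on GRCh38, 5′ to 3′ on the coding strand, with the encoded part of the stop codon in capitals (MT-CO1 and MT-ND6 end in AGA and AGG in the annotation).
MT-CO3: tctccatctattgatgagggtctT
MT-ND2: ccccttttatactaataatcttaT
MT-ND6: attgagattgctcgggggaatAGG
MT-CO1: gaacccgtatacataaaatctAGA
MT-ND4: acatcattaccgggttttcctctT
MT-ND5: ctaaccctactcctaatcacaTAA
MT-CO3, MT-ND2 and MT-ND4 end in a lone T and MT-ND5 in a complete stop. The overlap of the joined pair MT-ATP8 and MT-ATP6 (chrM:8527-8572, plus strand) is shown because reads from it cannot be given to 1 gene, with the start codon of MT-ATP6 in capitals.
MT-ATP8 and MT-ATP6: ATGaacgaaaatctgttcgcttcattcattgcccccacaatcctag

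Copies of mitochondrial DNA in the nuclear genome can be nearly identical to their parents. The table held 389 rows of such copies, of which 122 were above 0 in some library and 7 exceeded 1 CPM (counts scaled to the same total in each library) on average over all libraries. The 3 highest were MTATP6P1, MTND2P28 and MTCO1P12, all on chromosome 1, with identities to MT-ATP6, MT-ND2 and MT-CO1 of 98.5%, 98.4% and 98.6% over the aligned bases. MTATP6P1 differed from MT-ATP6 at 10 of 681 bases. A window of 60 bases that holds 3 of these differences, in capitals, shows how few bases separate the genes.
MT-ATP6: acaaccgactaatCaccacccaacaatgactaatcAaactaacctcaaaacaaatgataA
MTATP6P1: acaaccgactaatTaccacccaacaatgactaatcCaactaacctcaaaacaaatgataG
The counts of MTATP6P1 were 0.149 ± 0.00417 of those of MT-ATP6 in normoxic solvent controls (SD, n = 5) and 0.190 ± 0.0311 in hypoxic controls (SD, n = 3). The same ratio was 0.0348 ± 0.00116 for MTND2P28 to MT-ND2 and 0.00277 ± 0.000104 for MTCO1P12 to MT-CO1 in normoxic controls. The authors' quantification divides reads among such sequences, so MT-ATP6 carries more of this uncertainty than MT-CO1.

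The 22 tRNA genes, of 59 to 75 bases, were listed at 0 in all 24 libraries, so nothing can be said about mitochondrial tRNA levels. Rows of that size were empty throughout the table: none of the 1143 rows with an exon length up to 75 bases was above 0, against 88.0% of the rows over 1000 bases. The remaining 15 members were far above the filter on low counts in all groups, so all 15 were tested in each comparison.

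Totals per library ran from 78862528 to 105571250 counts. The treatments were checked with known targets: 10 of 10 listed targets of the hypoxia-inducible factors rose in hypoxia and 9 of 10 listed TGF-β targets rose with TGF-β1. Epithelial genes marked the line (PAX8 199 to 643 CPM over the libraries), and 11 of 18 listed proximal tubule markers exceeded 1 CPM on average. The highest of the 18 was VIM, which is not specific to that tubule. Transporters of the mature tubule were absent or low, with SLC22A6 listed at 0 throughout. Defining markers of T cells (CD3E) and distal nephron (AQP2, UMOD) were at 0 in all libraries. PECAM1 and CDH5 of endothelium did not exceed 0.158 and 0.0110 CPM. Other members of these lists were present: 2 of 7 immune markers exceeded 1 CPM on average, with CD74 highest at 161 CPM, as did 2 of 8 distal nephron markers, with SCNN1A highest at 19.9 CPM, and 2 of 7 endothelial markers, with EGFL7 highest at 36.3 CPM. Within the groups of 5, the libraries formed 2 subsets along the first principal component of the nuclear genes (29.3% of the variance within groups). Subset 1 held solvent replicates 1, 2 and 5 and replicates 1 and 2 of TGF-β1 and of TGF-β1 with BAY, and subset 2 the other libraries of these groups. Results that rest on these libraries are given within subsets as well. The subsets were drawn from the nuclear genes of these same libraries, which can narrow the spread left within them. Calls within subsets or with the subset as a covariate are therefore no separate evidence. The labels number the hypoxic RNA samples apart from the normoxic ones, so oxygen and whatever that numbering marks cannot be told apart. Within hypoxia the BAY samples are numbered 21 to 23 and the solvent samples 31 to 33. The same limit therefore holds for BAY in hypoxia and for its interaction with oxygen.

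In normoxic solvent controls the 13 mRNAs took 5.76%, 5.86%, 5.65%, 5.67% and 5.89% of the library in the 5 libraries, a mean of 5.76% ± 0.106 (SD). The 2 rRNAs took 1.53% ± 0.0718 (SD, n = 5). Both shares are of poly(A)-selected RNA, so a value reflects how much of a transcript was captured by its tail as well as how much was present, and the part of tail length in the results below was not tested. Per kilobase of gene, MT-CO1 (10066 ± 261 CPM per kb) stood first. MT-RNR2, the large rRNA (9163 ± 376), and MT-CO2 (8717 ± 334) followed, and the ranges of these neighbours at 1 SD overlapped for the latter pair. Below them came MT-ATP6 (7124 ± 150), MT-CO3 (6664 ± 220), MT-ND4 (5312 ± 79.4) and MT-ND2 (4760 ± 129). MT-CYB, MT-ND1 and MT-ATP8 stood at 4296 ± 114, 3927 ± 524 and 3634 ± 204 CPM per kb, and the spread of MT-ND1 reached into those of the other two. MT-ND3, MT-ND4L and MT-ND5 had 2435 ± 26.6, 2268 ± 84.4 and 1476 ± 119 CPM per kb. MT-RNR1, the small rRNA, had 1035 ± 148 and MT-ND6 378 ± 44.7 CPM per kb (SD, n = 5 for all).

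**Figure D1:**
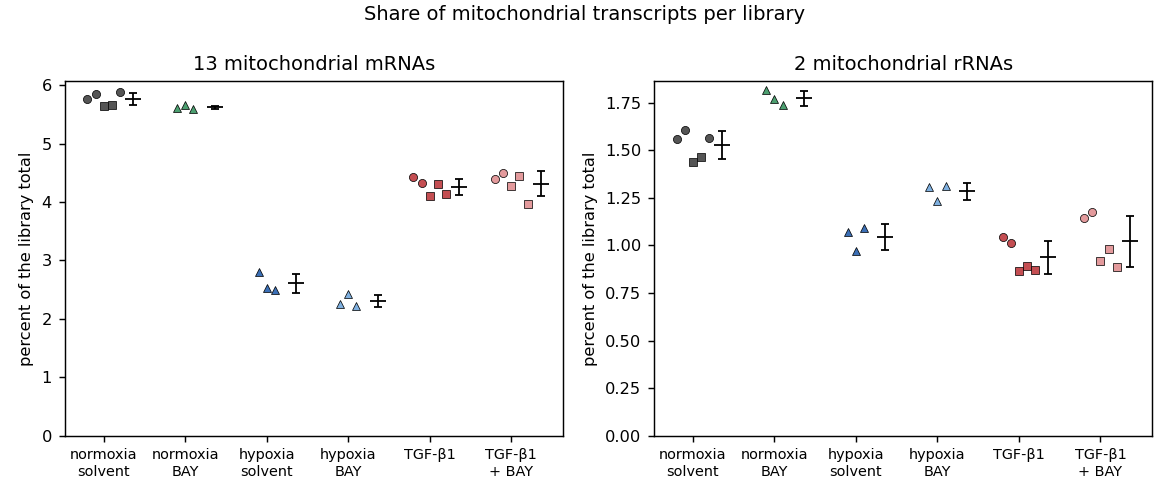
Percent of each library's total count taken by the 13 mitochondrial mRNAs (left) and the 2 rRNAs (right) in the 6 groups. Each symbol is 1 library (circles subset 1, squares subset 2, triangles groups of 3 without subsets), and the bar beside them is the mean ± SD. The mRNA share is lowest in the 2 hypoxic groups, while the rRNA share in hypoxia with BAY (1.28%) lies above that with TGF-β1 (0.937%).

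The comparison of oxygen levels asked how 24 h at 0.3% oxygen changed these transcripts in solvent-treated cells. All 13 mRNAs fell, with a median log2 fold change of -1.52, and their share of the library was 2.80%, 2.54% and 2.50% in the 3 hypoxic libraries, below each of the normoxic controls. The fall was uneven: MT-ND6, MT-CO3 and MT-ND2 were down to 20.6%, 23.2% and 24.9% of their normoxic CPM, and MT-ND4, MT-ND5 and MT-ND4L to 71.1%, 67.1% and 64.0%. MT-RNR2 fell less than most mRNAs and MT-RNR1 was called higher, so the mitochondrial RNA that remained was richer in rRNA. Among all 21316 genes tested 60.8% were called (at an adjusted p below 0.05), 31.6% lower and 29.2% higher, and their median log2 change was -0.02. The CPM of the groups did not overlap for 14 of the 15 members, the 13 mRNAs and MT-RNR2, where 58.1% of all genes tested did not overlap and 34.4% of all were apart and lower in hypoxia.

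MT-ND6, the complex I subunit encoded on the other strand, was at 213, 232, 183, 191 and 174 CPM in the normoxic libraries, against 43.2, 44.2 and 35.4 in the hypoxic ones. Every hypoxic library lay below the lowest normoxic one, and the log2 difference was -2.21 (SE 0.140, adjusted p = 3.06e-08 by edgeR with Benjamini-Hochberg adjustment). Whether the counting used strand is not given in the sources used here, so reads of MT-ND6 and of RNA antisense to it cannot be told apart. MT-CO3, a core subunit of cytochrome c oxidase, was at 5052, 5043, 5283, 5440 and 5306 CPM with normal oxygen, against 1316, 1204 and 1122 without overlap in low oxygen. It fell by 2.03 on the log2 scale.

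MT-CO1, the catalytic subunit of the same enzyme, was at 15631, 15762, 15096, 15118 and 16004 CPM in normoxic libraries, against 9063, 8438 and 9426 in hypoxic ones. The groups were apart, but the fall was smaller, at -0.72 on the log2 scale (SE 0.0494, edgeR adjusted p = 3.99e-09). MT-CO2 of that complex fell by 1.40, so its 3 mitochondrial subunits ranged from -2.03 to -0.72. The counts of MT-CO1 per count of MT-CO3 were 2.97 ± 0.151 in normoxic controls (SD, n = 5) and 7.43 ± 0.841 in hypoxic ones (SD, n = 3).

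MT-ND4, a membrane subunit of complex I, had the smallest fall. It went from 7177, 7294, 7454, 7400 and 7272 CPM to 5615, 5070 and 4927, a log2 fold change of -0.42 (SE 0.0424, edgeR adjusted p = 3.41e-07). Its partner on the joined transcript, MT-ND4L, fell by 0.57, and MT-ND5, the next gene along the genome, by 0.51. The other complex I subunits on that strand fell further, to log2 fold changes of -1.52 for MT-ND1, -1.94 for MT-ND2 and -1.56 for MT-ND3. MT-ND4 rose in rank per kilobase from the fifth to the second of the mRNAs, behind MT-CO1, at 3777 ± 264 CPM per kb (SD, n = 3).

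The other joined pair, the ATP synthase subunits MT-ATP8 and MT-ATP6, fell together by 1.60 each, and their ratio (MT-ATP6 to MT-ATP8) was 6.46 ± 0.259 in normoxia and 6.42 ± 0.157 in hypoxia. For the pair on MT-ND4 the ratio (MT-ND4 to MT-ND4L) was 10.9 ± 0.318 and 12.1 ± 0.190 (SD, n = 5 and 3). Reads in the overlap of each pair are divided by the quantification, which also ties their values. MT-CYB, the complex III subunit, fell by 1.40.

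The 3 mRNAs over 1300 bases (MT-CO1, MT-ND4 and MT-ND5) had log2 fold changes from -0.72 to -0.42, and the 10 shorter ones from -2.21 to -0.57, where MT-ND4L, joined to MT-ND4, was the upper end. The limit of 1300 bases was set after these values were seen. Across the 13 mRNAs the log2 fold change correlated with gene length at Pearson r = 0.50 and Spearman rho = 0.45, and with distance of the start along the genome at 0.10 and 0.16, as a description over genes that share precursors and libraries. The stop letters did not divide them: among genes with a lone T, MT-CO3 and MT-ND2 were near the largest fall and MT-ND4 had the smallest.

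**Figure D2:**
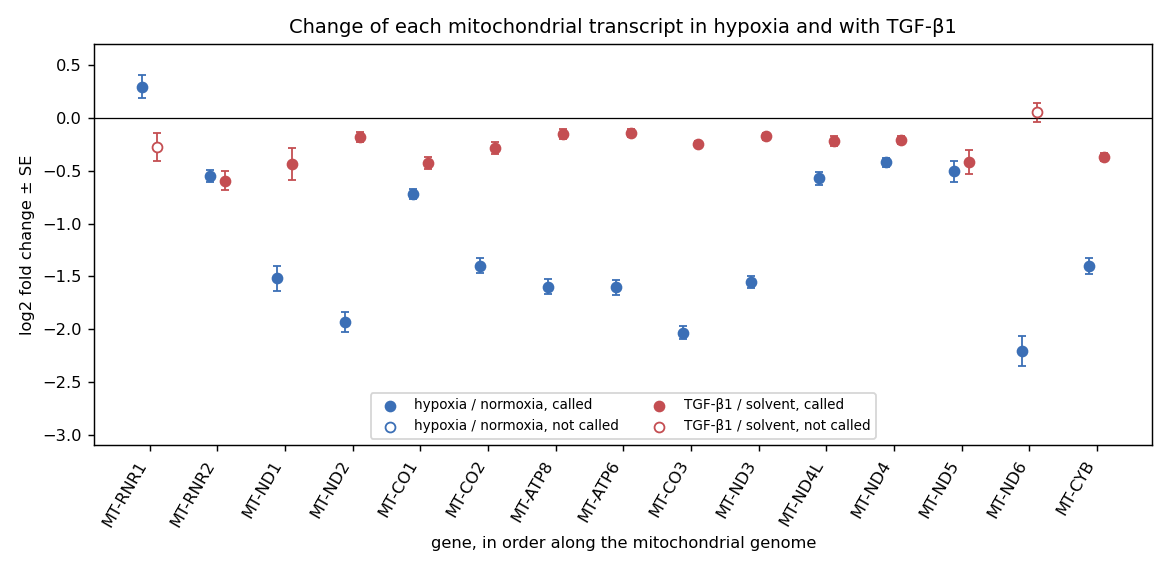
Log2 fold change (± SE) of the 15 measured genes, in their order along the mitochondrial genome, in hypoxia against normoxia (blue, 3 and 5 libraries) and with TGF-β1 against solvent (red, 5 and 5). Filled symbols are called at an adjusted p below 0.05. In hypoxia the values run from -2.21 (MT-ND6) to 0.30 (MT-RNR1), and with TGF-β1 from -0.60 (MT-RNR2) to 0.05 (MT-ND6). Both sets share the solvent controls.

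Because the mRNAs fell unevenly, the make-up of the mitochondrial mRNA counts shifted. MT-CO1 took 26.9% of them in normoxic controls and 34.5% in hypoxic ones, and MT-ND4 12.7% and 19.9%. MT-CO3 took 9.07% and 4.65%, and MT-ND2 8.60% and 4.72%. The ratio of MT-ND4 to MT-CO3 gives the contrast within each library: it was 1.40 ± 0.0358 in normoxic controls (SD, n = 5) and 4.29 ± 0.0911 in hypoxic ones (SD, n = 3). That of MT-ND5 to MT-ND6, which abut on opposite strands, was 13.5 ± 1.16 and 43.9 ± 4.71. None of these ratios overlapped between the groups, and none depends on the scaling of the library.

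**Figure D3:**
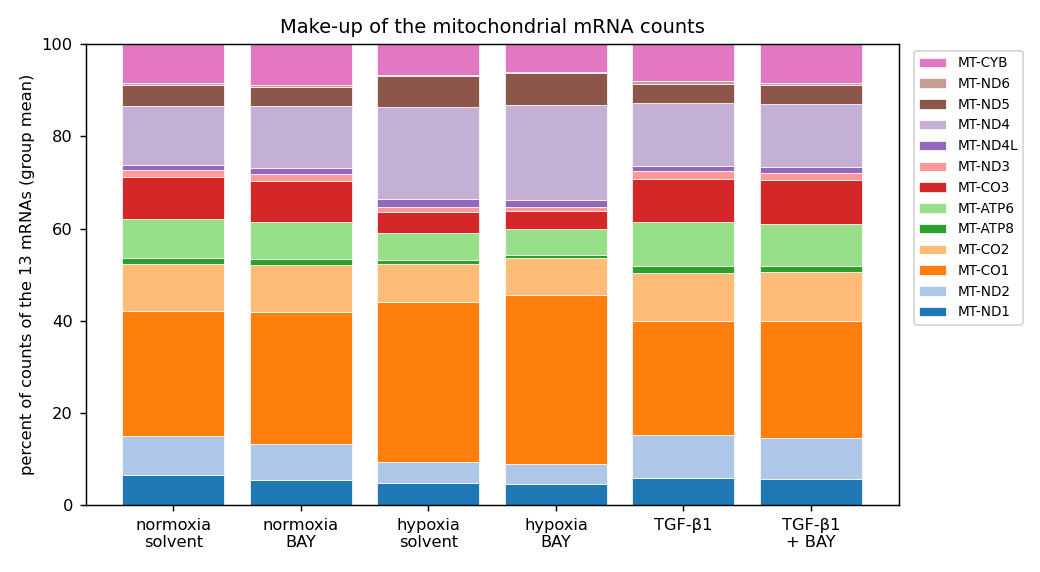
Mean percent of the counts of the 13 mitochondrial mRNAs taken by each gene in the 6 groups, stacked to 100%. MT-CO1 (26.9% in normoxic and 34.5% in hypoxic controls) and MT-ND4 (12.7% and 19.9%) widen in the 2 hypoxic groups and MT-CO3 narrows (9.07% and 4.65%).

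MT-RNR2 was at 14491, 14977, 13533, 13839 and 14586 CPM in normoxic libraries, against 9502, 8662 and 9701 in hypoxic ones, with no overlap. Its log2 fold change was -0.55 (SE 0.0555, edgeR adjusted p = 3.47e-07). MT-RNR1 was at 1104, 1100, 850, 819 and 1066 CPM in normoxic libraries, against 1221, 1025 and 1220 in hypoxic ones, so 1 hypoxic library lay within the normoxic range. It was called higher at 0.30 (SE 0.111, edgeR adjusted p = 0.0345). That call was lost against controls of subset 1 alone (0.14), with a scaling on library totals (0.23), with no filter on low counts (0.31), with all 24 libraries in 1 fit (0.29), and without hypoxic solvent replicate 1 (0.27) or 3 (0.25) or normoxic solvent replicate 3 (0.24) or 4 (0.23), while against subset 2 alone it was 0.60. The counts of MT-RNR1 per count of MT-RNR2 were 0.0689 ± 0.00745 in normoxic and 0.124 ± 0.00522 in hypoxic controls, and rRNA per mRNA count 0.265 ± 0.00831 and 0.401 ± 0.0318 (SD, n = 5 and 3).

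The nuclear subunits of the same complexes changed less, where 31.6% of all genes tested were called lower in hypoxia and 29.2% higher. In complex I 16 of 35 tested nuclear subunits fell and 4 rose, with a median of -0.18, beside -1.52 for its 7 mitochondrial ones. NDUFA6 fell most (-1.49) and NDUFS4 rose most (0.47). In complex IV 4 of 10 nuclear subunits fell and 1 rose (median -0.07), with NDUFA4, a subunit of that enzyme despite its name, at -0.42. In complex III 5 of 9 fell and 3 rose (median -0.13), and in ATP synthase 9 of 17 fell and 5 rose (median -0.18), with ATP5MC1 at -0.91 and ATP5MC2 at 0.62. In bulk RNA a fall in all cells and a larger fall in a part of them cannot be told apart. Nor can a fall per mitochondrial genome and a fall in the number of these genomes. Every value is relative to the other RNA of the library.

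Of 9 genes listed under transcription of mitochondrial DNA, not all of which transcribe it themselves, 6 fell and 2 rose in hypoxia. Among all genes tested 31.6% were called lower and 29.2% higher. POLRMT, the mitochondrial RNA polymerase, fell by 0.56, and TFAM, which packages the genome and activates its promoters, by 0.52. TFB2M, the promoter-melting factor, was at -0.30 and TEFM, the elongation factor, at -0.20, both called lower. MTERF2 and MTERF3, of the termination factor family, fell by 0.67 and 0.39, while MTERF4 rose by 0.14 and TFB1M, an rRNA methyltransferase, by 0.27. MTERF1 was at -0.10 and not called.

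Of 12 genes for mitochondrial RNA stability, polyadenylation and decay 5 fell and 3 rose. That is not far from the 31.6% lower and 29.2% higher among all genes tested. PNPT1, the polynucleotide phosphorylase of the RNA degradosome, fell by 1.17, DHX30, a helicase of RNA granules, by 0.50, PDE12, which removes poly(A) tails, by 0.36, METTL17 by 0.27 and ANGEL2 by 0.16. LRPPRC, which holds the mRNA pool stable, rose by 0.22, the degradosome helicase SUPV3L1 by 0.20 and the nuclease ENDOG by 0.23. MTPAP, the mitochondrial poly(A) polymerase, was at -0.00 and SLIRP, the partner of LRPPRC, at -0.07, both not called. REXO2 and SSBP1 were not called either, at -0.12 and -0.16.

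Of 14 genes for RNA processing 10 fell and 2 rose, with ELAC2, which cuts the 3′ ends of tRNAs, at -0.88 and GRSF1 of the RNA granules at 0.48. For this and the next lists the share of all genes tested was 31.6% lower and 29.2% higher. Of 11 genes for replication and copy number of the mitochondrial DNA 7 fell and 2 rose, with RNASEH1 at -1.32 and POLG2, the accessory subunit of the DNA polymerase, at 0.83. Of 10 nuclear regulators 8 fell and 1 rose, with the coactivator PPARGC1B at -1.20 and MYC at 0.63. In the list of mitophagy and hypoxic remodelling 8 of 13 rose and 3 fell, with BNIP3, a mitophagy receptor, at 3.58 and HIGD1A at -1.26. The part of any of these genes in the fall of the mRNAs was not tested.

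**Figure D4:**
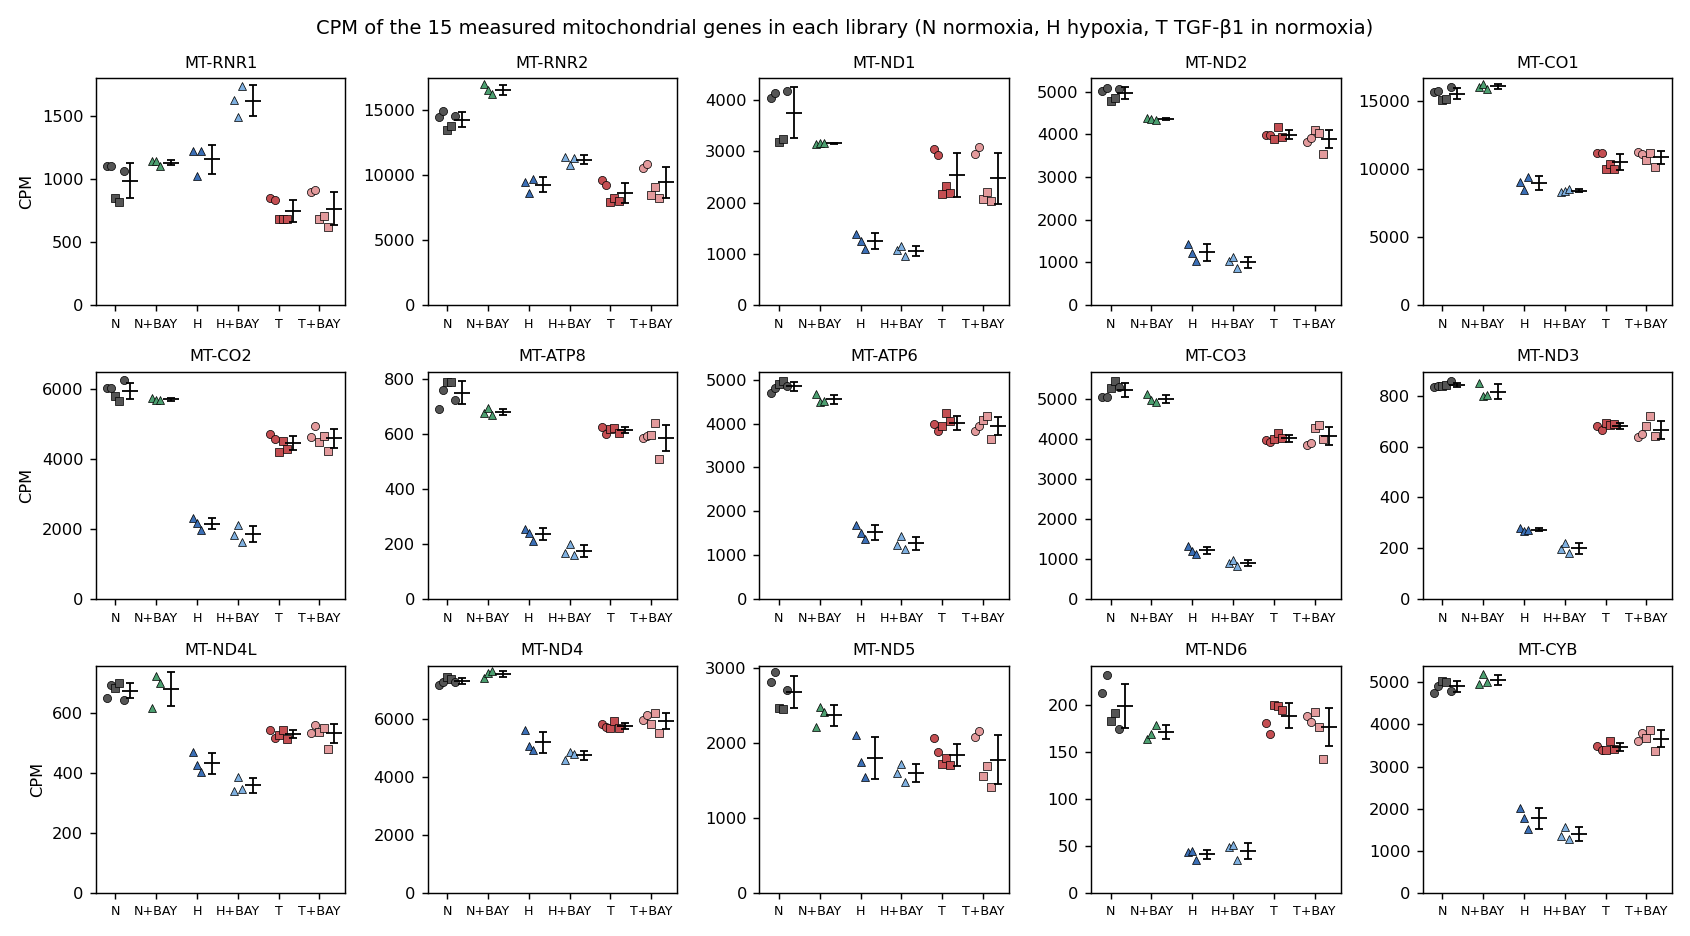
CPM of each measured gene in all 24 libraries, on a linear axis from 0 (circles subset 1, squares subset 2, triangles groups of 3), with the mean ± SD beside each group. Apart from MT-ND5, the mRNAs have their lowest means in the 2 hypoxic groups. MT-RNR1 is highest in hypoxia with BAY (1493 to 1739 CPM), and MT-ND1, MT-ND5, MT-RNR1 and MT-RNR2 separate the subsets within the normoxic groups of 5.

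The comparison of BAY with solvent in normoxia gave few calls. By edgeR 0 of the 13 mRNAs were called (4 were lower at an unadjusted p below 0.05, and 4 were called lower by DESeq2), and MT-RNR2 alone of the 15 members was called, as higher. MT-RNR2 had 17011, 16542 and 16264 CPM with BAY, above all 5 controls, a log2 fold change of 0.19 (SE 0.0542, edgeR adjusted p = 0.0116), where 43.9% of all genes tested were called, 20.6% higher and 23.3% lower. The call was lost against controls of subset 1 alone (0.10), without BAY replicate 1 (0.15), 2 (0.18) or 3 (0.19) and with all 24 libraries in 1 fit (0.17). The mRNAs ranged from -0.28 (MT-ND1, SE 0.111, edgeR adjusted p = 0.0541) to 0.02 (MT-CO1, SE 0.0481, edgeR adjusted p = 0.788). MT-CYB had the smallest value, 0.01 (SE 0.0742, edgeR adjusted p = 0.907), MT-ND6 was at -0.25 (SE 0.127, edgeR adjusted p = 0.137) and MT-RNR1 at 0.16 (SE 0.112, edgeR adjusted p = 0.270).

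MT-ND1 and MT-RNR1 in this comparison depended on which controls were used. MT-ND1 had 3146, 3159 and 3158 CPM with BAY, against 4044, 4130 and 4178 CPM in the solvent libraries of subset 1 and 3178 and 3240 CPM in those of subset 2. It was called lower against subset 1 alone (-0.46) and stood at -0.02 against subset 2 alone. MT-RNR1 had 1142, 1145 and 1106 CPM with BAY, close to subset 1 of the controls (-0.02) and above subset 2 (0.44, called higher). The 3 BAY libraries belong to neither subset by construction, so these effects and the split of the controls cannot be told apart.

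With BAY in hypoxia the mRNAs and the rRNAs went opposite ways: 6 of 13 mRNAs fell, none rose, and both rRNAs rose. MT-ND3 (-0.40), MT-ATP8 (-0.37), MT-CO3 (-0.37), MT-CYB (-0.29), MT-ND4L (-0.22) and MT-ATP6 (-0.21) fell, where 37.9% of all genes tested were called, 21.4% lower and 16.5% higher. The share of the mRNAs was 2.30% ± 0.107 with BAY and 2.61% ± 0.164 without, and that of the rRNAs 1.28% ± 0.0439 and 1.04% ± 0.0662 (SD, n = 3 each).

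MT-ND3, a small membrane subunit of complex I, had 195, 222 and 181 CPM with BAY and 280, 267 and 271 CPM without. These libraries did not overlap, and the log2 fold change was -0.40 (SE 0.0598, edgeR adjusted p = 7.49e-05). MT-CO3 had 895, 983 and 838 CPM with BAY, below the 1122 to 1316 CPM of hypoxic controls. MT-ATP6 and MT-CYB overlapped between the groups although they were called. In all, 7 of the 15 members did not overlap, 5 of them lower with BAY, where 49.4% of all genes tested did not overlap and 31.5% of all were apart and lower. The numbers of these libraries pair them by the correlation of their deviations, and 12 of the 13 mRNAs (all but MT-ND6) were lower with BAY in each of the 3 pairs, where 39.4% of all genes tested were. With this pairing as a block 7 mRNAs were called lower, the 6 above and MT-ND2 (-0.24, SE 0.0595, edgeR adjusted p = 0.00604).

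MT-RNR1 had 1626, 1493 and 1739 CPM with BAY, above all hypoxic controls, a log2 fold change of 0.54 (SE 0.126, edgeR adjusted p = 0.00405). MT-RNR2 had 11449, 10836 and 11367 CPM with BAY and was 0.33 higher (SE 0.0610, edgeR adjusted p = 0.000537). Both lay above their controls in 3 of 3 libraries, and the ratio of rRNA to mRNA counts was 0.559 ± 0.0437 (SD, n = 3), the highest of the 6 groups. MT-CO1, at 8287, 8423 and 8535 CPM, was not called (-0.04, SE 0.0538, edgeR adjusted p = 0.605), nor was MT-ND6, at 48.6, 50.7 and 35.2 CPM (0.19, SE 0.145, edgeR adjusted p = 0.350).

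The number of mRNAs called lower with BAY in hypoxia ranged from 3 to 8 when 1 library was left out. MT-ND3, MT-CO3 and MT-ATP8 kept their calls. MT-ND4L lost its call without BAY replicate 1 (-0.19) or 3 (-0.19) or solvent replicate 1 (-0.16), MT-CYB without BAY replicate 1 (-0.27) or 3 (-0.22) or solvent replicate 1 (-0.19), and MT-ATP6 without BAY replicate 1 (-0.19) or 3 (-0.13) or solvent replicate 1 (-0.13) or 2 (-0.22). MT-ND6 was called higher without BAY replicate 3 (0.34). The libraries numbered 2 with BAY and 3 without were each the closest to the other group for most mRNAs.

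Of the genes listed under transcription of mitochondrial DNA, POLRMT fell with BAY in hypoxia by 0.48, TFB1M by 0.39 and MTERF3 by 0.26. MTERF4 rose by 0.12, and the other 5 of 9 were not called. Among all genes tested 21.4% were called lower in this comparison and 16.5% higher. In the list of RNA stability 4 of 12 fell and 1 rose. ENDOG fell by 1.03, PDE12 by 0.47, PNPT1 by 0.46 and LRPPRC by 0.14, and ANGEL2 rose by 0.12. With BAY in normoxia, where edgeR called 0 of the 13 mRNAs, 9 of these 12 genes fell and 0 rose. On the transcription list 4 of 9 fell and 1 rose in normoxia. Among all genes tested 23.3% were called lower with BAY in normoxia and 20.6% higher. The podocyte marker list, of which 3 of 6 exceeded 1 CPM on average, moved with BAY in hypoxia and with hypoxia. The sum of its 6 markers was 174 to 185 CPM in normoxic controls and 517 to 536 CPM in hypoxic controls. In hypoxia with BAY this sum was 1221 to 1355 CPM. SYNPO made up most of it. Of the 3 podocyte markers tested 1 rose and 2 fell in hypoxia, and again with BAY in hypoxia. The sum of the fibroblast markers was 214 to 236 CPM in hypoxia with BAY against 125 to 131 CPM in hypoxic controls. The proximal tubule markers (VIM highest) summed to 3056 to 3154 CPM in hypoxic controls, above the 2106 to 2343 CPM of normoxic ones. In hypoxia with BAY they summed to 2845 to 3026 CPM. The part of these lists in the mitochondrial results was not tested.

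A test of the interaction compared the BAY effects at the 2 oxygen levels. MT-ND3 and MT-CO3 had a more negative BAY effect in hypoxia than in normoxia, by -0.32 (SE 0.0797, edgeR adjusted p = 0.0124) and -0.28 (SE 0.0820, edgeR adjusted p = 0.0308), and no other member was called, where 16.8% of all genes had a called interaction, 7.92% negative and 8.83% positive. MT-ND6 had the largest value, 0.44 (SE 0.193, edgeR adjusted p = 0.152), and MT-ND2 the smallest, -0.02 (SE 0.131, edgeR adjusted p = 0.936). MT-CO1 was at -0.06 (SE 0.0722, edgeR adjusted p = 0.638), MT-RNR2 at 0.14 (SE 0.0818, edgeR adjusted p = 0.274) and MT-RNR1 at 0.38 (SE 0.169, edgeR adjusted p = 0.153). Against controls of subset 1 alone both rRNAs had a called interaction (MT-RNR1 0.57, MT-RNR2 0.24), and MT-RNR1 also without normoxic solvent replicate 4 (0.44). Against subset 2 alone they were at 0.11 and 0.06, not called, and the call of MT-CO3 was lost (-0.26). With the pairing of the hypoxic libraries as a block MT-CYB was called as well (-0.30, SE 0.0802, edgeR adjusted p = 0.0230).

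TGF-β1, a cytokine that drives fibrotic change in the kidney, was tested against solvent in normoxia. Of the 13 mRNAs 12 fell, MT-ND6 was not called, and MT-RNR2 fell. Within subset 1 the calls of MT-ATP8 (-0.08) and MT-ND4L (-0.16) were lost, and within subset 2 those of MT-ATP8 (-0.19), MT-ATP6 (-0.10) and MT-ND2 (-0.10), while with the subset as a covariate all 12 were called lower. Over the alternatives to the fit the number of members called lower, rRNAs included, ran from 11 to 14. The mRNAs had a median of -0.22 on the log2 scale against -0.04 for all genes tested, of which 62% were called, 32.5% lower and 29.5% higher. The mRNA share was 4.43%, 4.33%, 4.11%, 4.32% and 4.13% of the library, below each control, and the rRNA share 0.937% ± 0.0852 (SD, n = 5). Scaling on library totals alone, without TMM, moved the median of all genes to -0.17, and the calls over all genes from 6380 higher and 7042 lower to 4693 and 9078.

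MT-CO1 had 11146, 11148, 10031, 10380 and 9983 CPM with TGF-β1, all below the lowest control at 15096, at -0.43 on the log2 scale (SE 0.0534, edgeR adjusted p = 1.19e-06). MT-CYB, at 3478, 3396, 3401, 3612 and 3417 CPM, fell by 0.37, and MT-ND5 by 0.42. The smallest falls were those of the ATP synthase pair, MT-ATP6 (-0.14) and MT-ATP8 (-0.16). Across the 13 mRNAs the log2 fold change correlated with gene length at r = -0.64 (rho = -0.65) and with GC content at r = -0.67 (rho = -0.82), as a description.

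Of the mRNAs MT-ND1 had the largest value, -0.44 (SE 0.154, edgeR adjusted p = 0.0212), with the largest SE. With TGF-β1 it had 3053 and 2932 CPM in the libraries of subset 1, below the 4044 to 4178 CPM of their controls, and 2174, 2330 and 2196 CPM in those of subset 2, below the 3178 and 3240 CPM of theirs. Within subsets the log2 fold change was -0.29 and -0.35, and with the subset as a covariate -0.34, each called. Over all libraries the call was lost with no filter on low counts (-0.43) and without solvent replicate 2 (-0.39) or 5 (-0.38) or TGF-β1 replicate 3 (-0.38) or 5 (-0.38).

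MT-ND6 had 181, 169, 199, 199 and 194 CPM with TGF-β1, which overlapped the 174 to 232 CPM of the controls. Its log2 fold change was 0.05 (SE 0.0893, edgeR adjusted p = 0.634). This value turned to -0.08 with the scaling on library totals and to -0.07 in subset 1. MT-ND6 was the mRNA with the largest fall in hypoxia. The ratio of MT-ND5 to MT-ND6 was 9.79 ± 1.36 with TGF-β1 against 13.5 ± 1.16 in controls (SD, n = 5 each).

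MT-RNR2 had 9618, 9277, 7977, 8223 and 8028 CPM with TGF-β1, all below the controls, and its log2 fold change of -0.60 (SE 0.0892, edgeR adjusted p = 1.16e-05) was the largest of the 15. MT-RNR1 was not called (-0.28, SE 0.135, edgeR adjusted p = 0.0891). It was called lower with the scaling on library totals (-0.40), within subset 1 (-0.21) and subset 2 (-0.12), with the subset as a covariate (-0.19) and without solvent replicate 3 (-0.34) or 4 (-0.35). The ratio of rRNA to mRNA counts was 0.220 ± 0.0141 with TGF-β1 against 0.265 ± 0.00831 in controls, without overlap.

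Among the nuclear subunits calls in both directions were found, where 29.5% of all genes tested were called higher with TGF-β1 and 32.5% lower. In complex I 15 of 35 nuclear subunits rose and 7 fell with TGF-β1 (median 0.07, beside -0.21 for the mitochondrial ones), in complex IV 4 of 10 rose and 3 fell, in complex III 3 of 9 rose and 2 fell and in ATP synthase 7 of 17 rose and 2 fell. UQCRC1 of complex III rose by 0.51 and NDUFA12 of complex I by 0.43, while COX7C of complex IV fell by 0.48.

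Among the genes listed under transcription of mitochondrial DNA, POLRMT rose by 0.74, MTERF3 by 0.63 and TFB2M by 0.20. MTERF2 and MTERF4 fell by 0.49 and 0.14. TFAM (0.01), TFB1M (0.02), TEFM (0.09) and MTERF1 (-0.01) were not called. In the list of RNA stability 6 of 12 rose and 3 fell, beside 29.5% higher and 32.5% lower among all genes tested. REXO2, which degrades short RNAs, rose by 0.87, SSBP1 by 0.59, SLIRP by 0.53, SUPV3L1 by 0.27, ENDOG by 0.23 and PNPT1 by 0.21, and PDE12, ANGEL2 and LRPPRC fell by 0.36, 0.23 and 0.21. Of the nuclear regulators 5 of 10 rose and 4 fell, with the coactivator PPARGC1A at -2.10 and its relative PPARGC1B at 0.64. The sum of 7 fibroblast markers, of which 4 exceeded 1 CPM on average, was 271 to 292 CPM with TGF-β1 and 114 to 147 CPM in controls. COL1A1 was the highest of them, at 108 CPM on average over all libraries, and COL3A1 did not exceed 0.0620 CPM in any library. Other marker lists also moved without overlap: the summed proximal tubule markers (VIM highest) were at 3210 to 3651 CPM against 2106 to 2343 CPM in controls, the immune ones at 214 to 235 CPM against 386 to 434 CPM, the podocyte ones at 79.6 to 96.0 CPM against 174 to 185 CPM and the distal nephron ones at 7.78 to 9.58 CPM against 37.9 to 42.8 CPM. The proximal tubule sum does not stand for most of its members. Its highest gene, at 1139 CPM on average over all libraries, was VIM, which is not specific to that tubule. Of the 15 proximal tubule markers tested 9 fell with TGF-β1 and 5 rose, with a median log2 fold change of -0.87. The part of these lists in the mitochondrial results was not tested.

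The next comparison asked whether BAY changed these transcripts in the presence of TGF-β1. By edgeR 0 of the 15 members were called, where 29.5% of all genes were, 13.9% higher and 15.6% lower. At an unadjusted p below 0.05 there was 1 higher member, and limma voom called 1 higher. The mRNA share was 4.32% ± 0.213 with BAY and 4.26% ± 0.139 without (SD, n = 5 each). All 15 members overlapped between the groups, where 22.3% of all genes tested did not overlap and 13.4% of all were apart and lower. MT-CYB had the largest value among the mRNAs, 0.10 (SE 0.0388, edgeR adjusted p = 0.0507), and MT-ATP6 the smallest, -0.01 (SE 0.0375, edgeR adjusted p = 0.937). MT-CO1 was at 0.06 (SE 0.0533, edgeR adjusted p = 0.422), MT-ND6 at -0.07 (SE 0.0893, edgeR adjusted p = 0.626) and MT-RNR1 at 0.06 (SE 0.135, edgeR adjusted p = 0.803).

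MT-RNR2 had 10548, 10870, 8503, 9121 and 8221 CPM with both agents, a log2 fold change of 0.16 (SE 0.0889, edgeR adjusted p = 0.217). With the subset as a covariate it was called higher at 0.15, as it was within subset 1 (0.20) and subset 2 (0.11). MT-RNR1 was called higher within subset 1 (0.13) and was at -0.01 within subset 2. In the fit with the covariate the SE of MT-RNR2 was 0.0358, against 0.0889 in the reported fit, and MT-CYB was called as well (0.10). The subsets were drawn from these same libraries, so these calls add no separate evidence to the reported fit.

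The interaction of BAY with TGF-β1 was positive for all 13 mRNAs, of which MT-ND2 (0.22, SE 0.0691, edgeR adjusted p = 0.0297) and MT-CO3 (0.15, SE 0.0482, edgeR adjusted p = 0.0326) were called, where 20.7% of all genes had a called interaction, 13.7% positive and 7.08% negative. MT-ND1 had the largest value, 0.29 (SE 0.235, edgeR adjusted p = 0.440), and MT-CO1 the smallest, 0.06 (SE 0.0814, edgeR adjusted p = 0.644). MT-ND6 was at 0.20 (SE 0.137, edgeR adjusted p = 0.352), MT-RNR1 at -0.08 (SE 0.206, edgeR adjusted p = 0.827) and MT-RNR2 at -0.01 (SE 0.136, edgeR adjusted p = 0.969). Within subsets these values parted. MT-RNR1 was called positive in subset 1 (0.12) and negative in subset 2 (-0.45), and MT-RNR2 was called negative in subset 2 (-0.17). MT-ND1 was called at 0.46 in subset 1 and stood at -0.05 in subset 2, where MT-CO1 (-0.0040), MT-ND5 (-0.09) and MT-ND6 (-0.06) were negative too, none of them called. MT-ND2 lost its call in subset 2 (0.12), and MT-CO3 in subset 1 (0.07) and with the scaling on library totals (0.08). The BAY libraries without TGF-β1 belong to neither subset. The 8 normoxic libraries without TGF-β1 served both experiments, so the comparisons share controls.

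**Figure D5:**
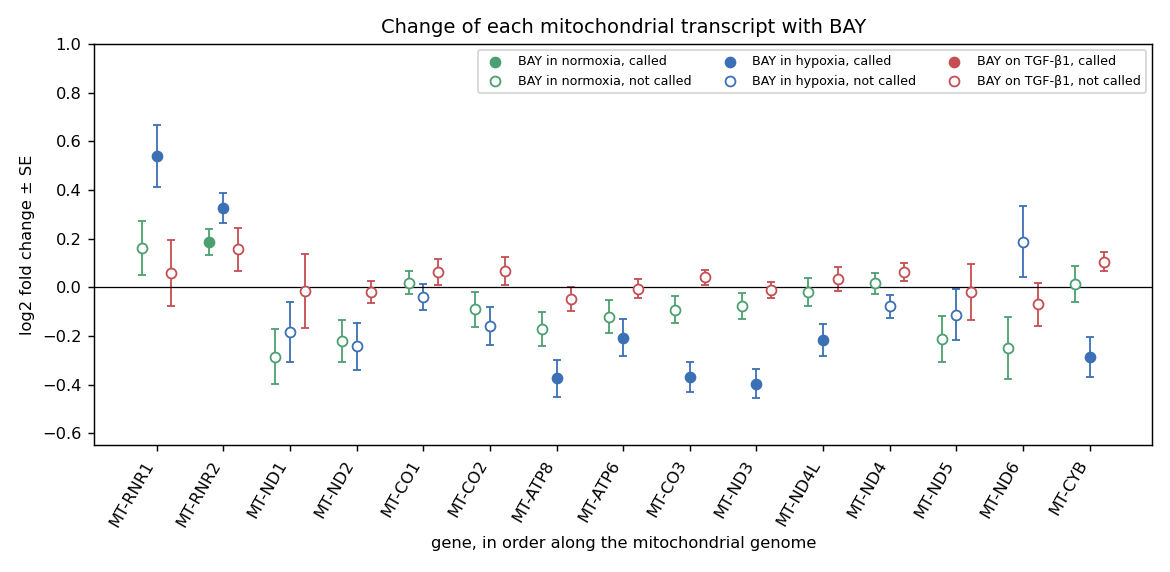
Log2 fold change (± SE) of the 15 measured genes with BAY in normoxia (green, 3 and 5 libraries), in hypoxia (blue, 3 and 3) and on top of TGF-β1 (red, 5 and 5), in order along the mitochondrial genome. Filled symbols are called at an adjusted p below 0.05: 1 gene in normoxia (MT-RNR2, 0.19), 8 in hypoxia, from -0.40 (MT-ND3) to 0.54 (MT-RNR1), and none with TGF-β1.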

How the data were processed

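Poly(A) RNA of 24 libraries was quantified with Salmon per gene, per the submitters' processing notes, which also name DESeq2 and GRCh38 (hg38). The authors deposited these as estimated counts, of which 48.6% of the values above 0 are fractional. The sources used here name no tool version, annotation release or strand setting. Input was 400 ng total RNA, per the labels' protocols.

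Symbols were found for 58919 Ensembl IDs, and the other 6261 IDs, with 4.36% of all counts, stayed in the totals. Positions and sequences are from GENCODE 29 on GRCh38. CPM uses the raw library total. For tests, counts were rounded, filtered with filterByExpr, scaled by TMM and fitted with edgeR 4.0.16 (R 4.3.3; robust quasi-likelihood F test), over 14 libraries and 21316 genes for oxygen and BAY, and over 18 libraries and 21639 genes for TGF-β1 and BAY. P-values were adjusted over all genes of a fit by Benjamini-Hochberg, and genes at an adjusted p below 0.05 are called. An SE is the size of the log2 value over the root of F. The spread between libraries, not counting error, limits precision at these totals. In simulated hypoxia data with 21316 genes, 62.1% of the genes changed by 0.5 and 98.5% of those changed by 2 log2 units were recovered (66 and 67 genes), and 7.91% of the calls were false, above the nominal 5%. In simulated TGF-β1 data these values were 72.1%, 100% and 4.07%. The simulation gave every gene the same dispersion and changed far fewer genes than were called here, so its rates need not hold for the data.

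All 37 members are named. Full statistics are given for MT-CO1, MT-ND6, both rRNAs and the mRNAs of largest and smallest change. The lists on mitochondrial transcription and RNA stability are named in full. Of other lists, the called genes of at least 5 CPM with the largest rise and fall may be named, and of nuclear copies the 3 highest. The members and lists were chosen with earlier results of these data known. Alternatives were DESeq2 1.42.0, limma voom (3.58.1), no filter, all 24 libraries in 1 fit, scaling outside the mitochondrial genome, nuclear copies added, a replicate block and leaving out each library. The 3 same-number pairs of hypoxic BAY and solvent libraries deviated together (correlations 0.220, 0.211 and 0.228, each over 0.1), so their number was also used as a block. This block, scaling on library totals and the fits by subset were chosen after seeing the data. The value of a marker gene is not reported here.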

Additional observations from a re-analysis of the deposited data

Results flagged for a closer look

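MT-ND3 in replicate 5 of the normoxic solvent controls stood apart from the other 4 libraries of its group, at 858 CPM against 834 to 840 CPM. It was 1 of 51 sets of values examined for a single distant library, and chance gives about 1 in 20.

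The BAY effect differed between oxygen levels, by an interaction test, for MT-CO3 (-0.28, edgeR adjusted p = 0.0308) and MT-ND3 (-0.32, edgeR adjusted p = 0.0124). For MT-CO3 the call was lost when any 1 of 9 of the 14 libraries was left out: hypoxic BAY replicate 1 (-0.28) or 3 (-0.22), hypoxic solvent replicate 1 (-0.22) or 2 (-0.29), normoxic BAY replicate 1 (-0.23), 2 (-0.26) or 3 (-0.26), or normoxic solvent replicate 1 or 2 (-0.27 each). Against controls of subset 2 alone it was lost too (-0.26). For MT-ND3 the call was lost without normoxic BAY replicate 1 (-0.26).

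The BAY effect also differed between cells with and without TGF-β1 for MT-ND2 (0.22, edgeR adjusted p = 0.0297) and MT-CO3 (0.15, edgeR adjusted p = 0.0326). The call of MT-ND2 was lost without any 1 of 9 of the 18 libraries: BAY replicate 1 (0.23), 2 (0.22) or 3 (0.22), solvent replicate 1 (0.21), 2 (0.20) or 5 (0.20), TGF-β1 replicate 3 (0.21), or TGF-β1 with BAY replicate 2 or 3 (0.21 each). That of MT-CO3 was lost without any 1 of 7: BAY replicate 2 or 3 (0.14 each), solvent replicate 5 (0.13), TGF-β1 replicate 2 (0.15) or 3 (0.14), or TGF-β1 with BAY replicate 3 (0.14) or 4 (0.13). Both calls were lost with all 24 libraries in 1 fit (0.22 and 0.15), that of MT-ND2 also in subset 2 (0.12), and that of MT-CO3 in subset 1 (0.07), with the scaling on library totals (0.08) and with no filter on low counts (0.15).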

How the results depend on the processing

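In hypoxia 14 members were lower in every fit run, including each library left out; the count of higher members went from 1 (MT-RNR1) to 0 with all 24 libraries in 1 fit, no filter, the replicate block, library totals and subset 1. With BAY in normoxia 0 were higher with all 24 libraries and subset 1 and 2 with subset 2, and the lower count was 4 with DESeq2 and the block, 3 with subset 1, 2 with all 24 libraries and 1 with limma voom. For oxygen by BAY 1 was higher with DESeq2 and 2 with subset 1, 4 were lower with library totals and 1 with subset 2, and 5821 genes in all were called with subset 1. With BAY on TGF-β1 1 was higher with limma voom, the block, scaling outside the mitochondrial genome and subset 2, 2 with the covariate and 4 with subset 1. For TGF-β1 by BAY 0 were higher with all 24 libraries, 1 with no filter, library totals and subset 2, and 6 with subset 1, 2 were lower with subset 2, and 7100 genes were called with subset 1.

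The sign turned for these log2 values, none of them called in the reported fit. With BAY in normoxia MT-CO1 was -0.0015 with all 24 libraries and -0.048 with subset 1, MT-CYB -0.0064 and -0.0046, and MT-RNR1 -0.019 with subset 1. For oxygen by BAY MT-CO1 was 0.023 with subset 1, and MT-ND2 0.0022 with all 24 libraries and 0.061 with subset 1. With TGF-β1 MT-ND6 was -0.075 with library totals and -0.072 with subset 1. With BAY on TGF-β1 MT-ATP6 was 0.0011 with scaling outside the mitochondrial genome and 0.0079 with subset 1, MT-ND6 0.10 with subset 1 and MT-RNR1 -0.015 with subset 2. For TGF-β1 by BAY MT-CO1 was -0.0076 with library totals and -0.0040 with subset 2, MT-ND1 -0.047 and MT-ND6 -0.064 with subset 2, MT-RNR1 0.12 with subset 1, and MT-RNR2 0.038 with the block and 0.068 with subset 1. The cause was not tested.

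Leaving out 1 library gave 0 to 1 higher members in hypoxia, 0 to 1 higher and 0 to 2 lower with BAY in normoxia, 2 to 3 higher and 3 to 8 lower with BAY in hypoxia, 0 to 1 higher and 0 to 4 lower for oxygen by BAY, 12 to 14 lower with TGF-β1, 0 to 2 higher with BAY on TGF-β1 and 0 to 5 higher for TGF-β1 by BAY. Signs turned within -0.015 to 0.017 for MT-CYB with BAY in normoxia, -0.088 to 0.0069 for MT-CO1 with BAY in hypoxia, and -0.12 to 0.089 for MT-ND2 in oxygen by BAY. With BAY on TGF-β1 the ranges were -0.022 to 0.036 for MT-ATP6, -0.10 to 0.012 for MT-ND6 and -0.023 to 0.14 for MT-RNR1, and for TGF-β1 by BAY -0.16 to 0.0019 for MT-RNR1 and -0.078 to 0.055 for MT-RNR2.

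Outside the 2 hypoxic groups no comparison had all of its same-number pairs correlated above 0.1. TGF-β1 with and without BAY came close, at 0.282, 0.339, 0.0347, 0.176 and 0.297 for replicates 1 to 5. Over all groups 16 of 51 same-number pairs correlated above 0.1, the lowest at -0.291. The best partner of 12 of 24 libraries had their own number. With the number as a block in all groups MT-RNR1 was 0.25 in hypoxia, no longer called, and -0.27 with TGF-β1, called. With BAY on TGF-β1 this block called MT-CYB higher (0.10), and 7231 genes in all against 6386. With the block within hypoxia no call of BAY in hypoxia or of oxygen by BAY was lost among the members.

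Over rows with a symbol the mRNA share was 6.02% in normoxic controls, 5.87% with BAY, 4.45% with TGF-β1 and 2.42% in hypoxia with BAY, and the rRNA share 1.85% with BAY and 1.35% in hypoxia with BAY. With the 100 highest nuclear genes out of the total, the mRNA share was 6.66% in normoxic controls, 6.50% with BAY, 5.08% with TGF-β1, 5.19% with both, 3.16% in hypoxia and 2.81% in hypoxia with BAY, and the rRNA share 1.76%, 2.05%, 1.12%, 1.23%, 1.27% and 1.57% in that order. With nuclear copies counted the mRNA share with BAY was 5.71%. Library totals in place of TMM changed the calls over all genes, higher and lower, from 6217 and 6743 to 5409 and 7731 in hypoxia, from 3524 and 4563 to 2746 and 5560 with BAY in hypoxia, from 1882 and 1689 to 1167 and 2930 for oxygen by BAY, and from 2956 and 1531 to 2148 and 2275 for TGF-β1 by BAY.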
